A study of Mus musculus with 2 samples.

Results

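Motile cilia and ependymal genes are the set described here: 34 genes taken by their Ensembl identifier from the gene tables of both libraries, out of 43346 genes in each table. The set was chosen for what its genes do, with earlier results of these data known. It holds 7 transcription and cell-cycle regulators of ciliated cells (Foxj1, Mcidas, Gmnc, Ccno, Rfx2, Rfx3 and Rfx4), 9 axonemal dynein heavy chains, 3 dynein assembly factors, 3 genes of the length ruler and the nexin-dynein regulatory complex, 3 of the central apparatus, 3 of the radial spoke, 4 of the doublet microtubules and their lumen (Tekt1, Tekt2, Tekt4 and Enkur) and 2 others (Ak7 and Tmem212). All 34 were found in both tables.

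The study measured total RNA of the newborn mouse forebrain by RNA-seq after removal of ribosomal RNA, keeping molecules above 200 nucleotides. It has 1 group of 2 libraries, named replicate 1 and replicate 2, from healthy animals of strain B6NTac;B6NCrl/Lap at a postnatal age of 0 days, males and females pooled. Replicate 1 came from 15 mice, and the number of mice pooled for replicate 2 is not given in the sources used here. There is no treated or mutant group, so the comparisons are between genes and between the libraries, which the labels call independent isolates although both carry the same donor identifier.

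The tables hold 62516003 and 65912060 estimated fragments. Protein-coding genes took 69.3% and 77.5% of all these fragments but only 13.5% and 22.03% of TPM, the length-corrected transcript abundance, so levels are given as coding TPM: TPM rescaled to sum to 1000000 over the 21474 protein-coding genes of each library. The scale is per length and can be compared between genes. A deposited TPM step of 0.01 is worth 0.0738 coding TPM in replicate 1 and 0.0454 in replicate 2, which limits the lowest values. The cortical neuron gene Neurod6 was at 243 and 182 coding TPM and Dlx2, a gene of ventral forebrain progenitors, at 18.7 and 27.0, while the hindbrain gene Hoxb3 had 0 counts in both.

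Motile cilia beat because dynein motors fixed in rows of arms along the outer microtubule doublets slide one doublet against the next, while radial spokes and the central apparatus set the rhythm and the nexin-dynein regulatory complex holds the doublets together. In the forebrain the cells that carry many such cilia are the ependymal cells lining the ventricles, which are made from radial glia and grow most of their cilia after birth, and the choroid plexus epithelium. Gmnc and Mcidas start the program of multiciliated cells, Ccno supports the making of many centrioles, Foxj1 switches on the axoneme genes, and RFX factors bind the promoters of ciliary genes. In a bulk sample of this kind fewer ciliated cells and less RNA per ciliated cell cannot be told apart.

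Because RFX factors and Foxj1 are both members, the letters upstream of the members' start sites were examined. RefSeq (GRCm38.p6) promoters were held for 29 of the 34 members, and no entry was held for Foxj1, Dnah3, Rsph1, Rsph4a and Dnaaf1. The RFX core, searched as GTTGCC and, for the other strand, as GGCAAC, lay within the 250 bases upstream of a start site in 9 of the 29 members (31.0%), against 11.8% of the 27025 genes in the table. The 9 were Mcidas, Ccno, Rfx2, Dnah10, Hydin, Tekt1, Tekt2, Drc1 and Enkur. Cores facing each other, GTNNCC followed after 0 to 3 bases by GGNNAC, a pattern that can overlap the core above, were found in Ccno and Tekt4 (6.90% of members, 3.66% of all genes). The forkhead motif TGTTTAC or GTAAACA was found only in Ak7 among the members held (3.45%, against 3.54% of all genes). These matches are descriptions of letters, with no binding measured here, and base composition was not matched between members and all genes.

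The upstream sequences of 5 of the 9 are shown because they cover 3 regulators, Mcidas and its neighbour Ccno and Rfx2 itself, and 2 structural genes, Tekt2 with a core on each strand and Enkur. Each runs 5′ to 3′ toward the start site on the gene's own strand, and capitals mark the RFX core or, in Ccno, the facing pair. They lie at chr13:112987552-112987801 (plus strand, Ccno), chr13:112993618-112993867 (plus strand, Mcidas), chr17:56831009-56831258 (minus strand, Rfx2), chr4:126325689-126325938 (minus strand, Tekt2) and chr2:21205366-21205615 (minus strand, Enkur).
Ccno: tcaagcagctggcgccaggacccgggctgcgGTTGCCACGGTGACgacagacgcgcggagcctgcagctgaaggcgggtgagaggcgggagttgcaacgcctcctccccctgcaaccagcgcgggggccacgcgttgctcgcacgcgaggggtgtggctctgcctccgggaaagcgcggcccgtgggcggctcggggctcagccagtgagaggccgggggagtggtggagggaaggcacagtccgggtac
Mcidas: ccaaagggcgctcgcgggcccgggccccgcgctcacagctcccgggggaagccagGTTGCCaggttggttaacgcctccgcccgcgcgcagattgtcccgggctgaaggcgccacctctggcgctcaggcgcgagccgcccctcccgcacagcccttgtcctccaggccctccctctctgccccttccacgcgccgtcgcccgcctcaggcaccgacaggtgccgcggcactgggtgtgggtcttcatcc
Rfx2: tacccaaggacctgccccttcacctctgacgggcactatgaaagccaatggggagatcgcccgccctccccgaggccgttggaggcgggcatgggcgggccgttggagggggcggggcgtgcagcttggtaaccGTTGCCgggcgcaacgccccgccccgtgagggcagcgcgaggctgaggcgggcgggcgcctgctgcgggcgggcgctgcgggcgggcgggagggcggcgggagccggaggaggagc
Tekt2: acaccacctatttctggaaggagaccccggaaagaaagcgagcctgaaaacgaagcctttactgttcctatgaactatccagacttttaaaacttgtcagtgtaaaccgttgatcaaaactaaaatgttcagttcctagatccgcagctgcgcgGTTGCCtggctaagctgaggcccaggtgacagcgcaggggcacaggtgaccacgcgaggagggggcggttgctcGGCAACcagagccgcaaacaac
Enkur: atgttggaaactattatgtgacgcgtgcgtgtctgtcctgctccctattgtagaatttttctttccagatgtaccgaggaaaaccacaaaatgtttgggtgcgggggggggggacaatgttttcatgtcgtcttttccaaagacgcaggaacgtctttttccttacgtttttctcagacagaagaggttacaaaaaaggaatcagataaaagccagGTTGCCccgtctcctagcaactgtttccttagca
Counted back from the start site, the first base of the core stood at -34 in Enkur, at -96 and -22 in the Tekt2 window shown, at -116 in Rfx2, at -195 in Mcidas and at -219 in Ccno. The core in Drc1 began at -11, in Hydin at -13 and in Dnah10 at -20.

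As a set the genes were low in the newborn forebrain. Their median was 2.18 coding TPM in replicate 1 and 3.18 in replicate 2 (2.68 ± 0.707, SD, n = 2), below the median of protein-coding genes, 7.46 and 8.81. In replicate 1 a level of 1 coding TPM was reached by 24 of 34 members, in replicate 2 by 29, and in both by 24, a share to be read against the 63.3% of protein-coding genes that did. By mean level 4 members lay at 20 or above, 6 between 5 and 20, 18 between 1 and 5, and 6 below 1. Together they took 0.0339% and 0.0375% of protein-coding counts. Of the 33 neighbouring pairs in the order of mean levels, 30 had ranges that overlapped. Overlap of ranges across libraries does not decide the order within a library. For example, Drc1 stood above Tekt1 in replicate 1 (12.4 and 10.2) and in replicate 2 (16.7 and 12.6). Tekt4 stood above Tmem212 in replicate 1 (3.77 and 2.66) but below it in replicate 2 (3.22 and 4.18). The 3 steps where the ranges separated were Rsph9 above Rfx3, Dnah9 above Tekt4, and Dnah3 above Dnaaf1. The step between Dnah9 and Tekt4 was lost without short and noncoding transcripts, where Dnah9 stood at 2.81 and 3.59 against 3.77 and 3.22 for Tekt4.

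**Figure D1:**
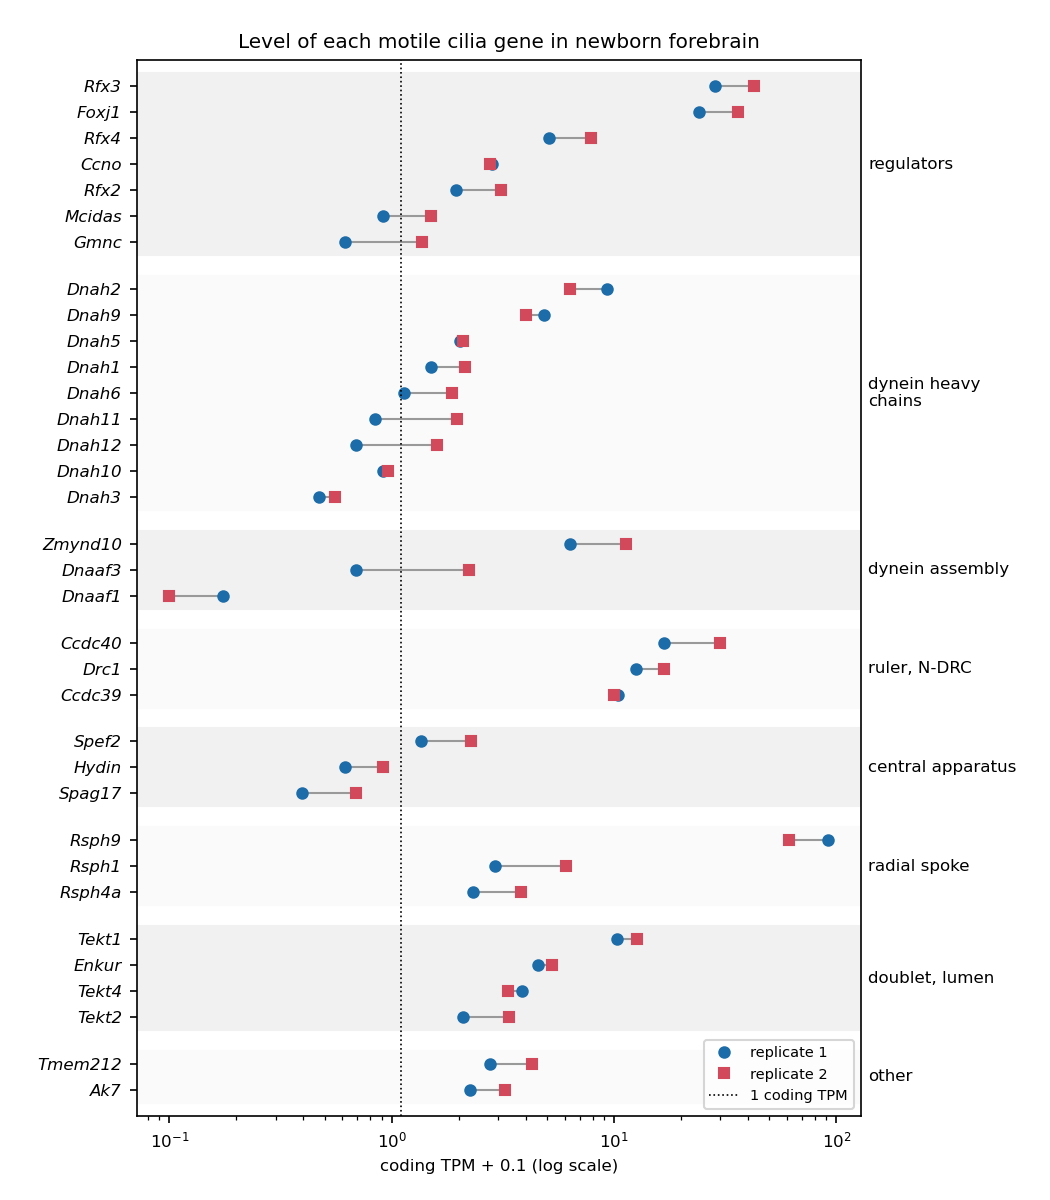
Level of each of the 34 genes in replicate 1 (circles) and replicate 2 (squares), as coding TPM plus 0.1 on a log axis, grouped by role, with a dotted line at 1 coding TPM. Rsph9 stands highest at 91.6 and 61.3 coding TPM, and Dnaaf1 lowest at 0.07 and 0.00.

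Among the regulators, Foxj1, Rfx3 and Rfx4 stood above the genes that start the multiciliated program. Foxj1, the forkhead factor that directs motile ciliogenesis (chr11:116330704-116335399, minus strand, mm10), was at 24.0 coding TPM in replicate 1 and 36.1 in replicate 2, from 1253 and 2047 counts. Rfx3, an RFX factor of both motile and primary cilia, was at 28.3 and 42.4, and Rfx4, which radial glia also use, at 5.02 and 7.81. Rfx2 was at 1.85 and 3.00, so Rfx3 exceeded it 15.3-fold and 14.2-fold within the same libraries and exceeded Rfx4 5.63-fold and 5.44-fold. Without transcripts under 500 nucleotides or annotated as noncoding, these ratios were 14.0 and 8.55 over Rfx2, and 5.47 and 3.34 over Rfx4.

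The early factors were near 1 coding TPM. Mcidas, the coiled-coil partner of E2F factors, was at 0.81 and 1.41 coding TPM (37 and 70 counts), and its relative Gmnc at 0.52 and 1.27 (46 and 116 counts). Foxj1 was 29.5-fold and 25.7-fold above Mcidas and 46.4-fold and 28.4-fold above Gmnc. Ccno, the cyclin that lies 3067 nucleotides upstream of Mcidas on the same strand of chromosome 13, was at 2.73 and 2.68. The median of the 7 regulators was 2.73 and 3.00. On the log2(coding TPM + 0.1) scale it exceeded the median of the dynein heavy chains by 1.32 in replicate 1 and 0.66 in replicate 2 (0.99 ± 0.47, SD, n = 2). The sign was the same in both libraries, and 2 libraries allow no permutation test of it.

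The 9 axonemal dynein heavy chains, the motors themselves, had a median of 1.03 and 1.86 coding TPM. Of the outer arm chains, Dnah5 was at 1.92 and 2.00, Dnah9 at 4.73 and 3.90, and Dnah11 at 0.74 and 1.86. Their median, 1.92 and 2.00, compared with 0.92 and 1.63 for the 6 inner arm chains. The inner arm chains ran from Dnah2 at 9.16 and 6.27 down to Dnah3 at 0.37 and 0.45. Between these, Dnah1 was at 1.40 and 2.04, Dnah6 at 1.03 and 1.77, Dnah12 at 0.59 and 1.498, and Dnah10 at 0.81 and 0.86. Of these 9 chains, only Dnah2 and Dnah9 had a lower coding TPM in replicate 2. Their counts went the other way, 620 and 916 for Dnah2 and 776 and 1089 for Dnah9.

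Of the factors that fold and assemble dynein arms in the cytoplasm, Zmynd10 was at 6.20 and 11.2 coding TPM and Dnaaf3 at 0.59 and 2.13. Dnaaf1 was at or near the limit of detection, with 5 counts in replicate 1 (95% Poisson interval 1.62 to 11.7) and 1 in replicate 2 (0.0253 to 5.57), intervals that cover counting error only. The ruler and nexin-dynein genes had the highest median of the groups, 12.4 and 16.7. Ccdc39 and Ccdc40, which together set the spacing of the arms along the doublet, were at 10.3 and 9.90 and at 16.6 and 29.8, and Drc1, a core subunit of the regulatory complex, at 12.4 and 16.7. The central apparatus lay at the other end, with Hydin at 0.52 and 0.82, Spag17 at 0.30 and 0.59 and Spef2 at 1.26 and 2.18. Drc1 exceeded Spag17 by 42.0-fold and 28.3-fold, although both encode parts of the same axoneme.

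The radial spoke genes were uneven. Rsph9, a spoke head protein (chr17:46122035-46144216, minus strand, mm10), was the highest of all 34 members at 91.6 and 61.3 coding TPM and stood at the 87.3 percentile of protein-coding genes by mean level. Its partners in the spoke head, Rsph1 at 2.81 and 5.95 and Rsph4a at 2.22 and 3.72, were 32.7-fold and 10.3-fold, and 41.4-fold and 16.5-fold, below it. Rsph9 was lower in replicate 2, where both partners were higher. The main coding transcript, Rsph9-201, held 88.7% and 94.3% of the TPM of the gene. The median of the 3 spoke genes exceeded that of the dynein heavy chains by 1.36 and 1.62 on the log2(coding TPM + 0.1) scale (1.49 ± 0.19, SD, n = 2).

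The tektins, filament proteins bound inside the doublet wall, were led by Tekt1 at 10.2 and 12.6 coding TPM, with Tekt4 at 3.77 and 3.22 and Tekt2 at 1.99 and 3.27. Enkur, a protein of the doublet lumen, was at 4.43 and 5.18. The adenylate kinase Ak7 was at 2.14 and 3.13, and Tmem212, a membrane protein used as a marker of ependymal cells, at 2.66 and 4.18.

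The libraries were then compared gene by gene. Counts were scaled by edgeR's TMM factors, and each of the 17544 genes with a mean of 10 counts or more was given a 2-sided exact binomial test with Benjamini-Hochberg adjustment over all of them, a gene being called at an adjusted p under 0.05 and a change of 2-fold or more. The test treats fragments as independent and so compares the reads of these libraries, not conditions or mice. Of all genes tested 10.3% were called, 5.43% higher in replicate 2 and 4.88% lower. Of the members, 33 could be tested, all but Dnaaf1, and 3 were called: Gmnc, Tekt2 and Dnaaf3, all higher in replicate 2. With 3 of 33 the share is near that of all genes.

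Gmnc had a log2 ratio of replicate 2 over replicate 1 of 1.05 (95% exact interval 0.55 to 1.58, adjusted p = 4.48e-05, exact binomial test). Tekt2, with 17 and 66 counts, had a log2 ratio of 1.65 (0.89 to 2.54, adjusted p = 1.31e-05, exact binomial test). Dnaaf3, with 27 and 100 counts, had a log2 ratio of 1.59 (0.98 to 2.28, adjusted p = 1.18e-07, exact binomial test). Each interval reaches below 1, the log2 value of a 2-fold change, so the size of these differences is known only loosely. Dnaaf3 shares 86 nucleotides of exon with Tnni3, a cardiac troponin gene on the same strand, which had 5 and 51 counts, and the part of those reads in the Dnaaf3 difference was not tested. With a minimum mean of 100 counts, 25 members could be tested and 0 were called, since all 3 called genes fall under that minimum, and 2.77% of all genes tested were called. Scaling by library totals alone instead called 6, adding Dnah12, Spag17 and Rsph1, where 11.1% of all genes tested were called.

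Below the 2-fold line more members differed, mostly in 1 direction. At an adjusted p under 0.05 with no fold limit, 19 of 33 members were higher in replicate 2 and 3 were lower, against 32.0% and 33.0% of all genes tested. The 3 lower members were Rsph9 (log2 ratio -0.69, interval -0.81 to -0.57, adjusted p = 1.57e-29, exact binomial test), Rfx3 (-0.15, adjusted p = 4.86e-07) and Ccdc39 (-0.21, adjusted p = 0.0094). Foxj1 was among the higher ones, with a log2 ratio of 0.43 (interval 0.33 to 0.53). The log2 ratio was above 0 in 25 of 33 members, against 49.8% of all genes tested. Its median over the members was 0.43, against -0.0027 over all genes, and it was 0.43 as well without Rsph9. On library totals alone the median of all genes moved to 0.19 and that of the members to 0.62.

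By role, the log2 ratio was positive for 5 of 7 regulators, 7 of 9 dynein chains, both dynein assembly factors tested, 2 of 3 ruler and nexin-dynein genes, all 3 central apparatus genes, 2 of 3 radial spoke genes, 2 of 4 doublet and lumen genes, and both others. Some groups held both signs: the radial spoke genes ran from -0.69 for Rsph9 to 0.60 for Rsph4a and 0.91 for Rsph1, and the doublet and lumen genes from -0.39 for Tekt4 to 1.65 for Tekt2. The central apparatus genes lay within a narrow range, from 0.53 for Spef2 and 0.54 for Hydin to 0.95 for Spag17. The 95% interval of the log2 ratio included 0 for 9 members, of which Ccno (-0.21), Dnah5 (-0.12), Dnah10 (-0.06), Tekt4 (-0.39) and Enkur (-0.04) had a ratio below 0 and Dnah3 (0.30), Tekt1 (0.13), Zmynd10 (0.34) and Tmem212 (0.45) a ratio above 0.

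**Figure D2:**
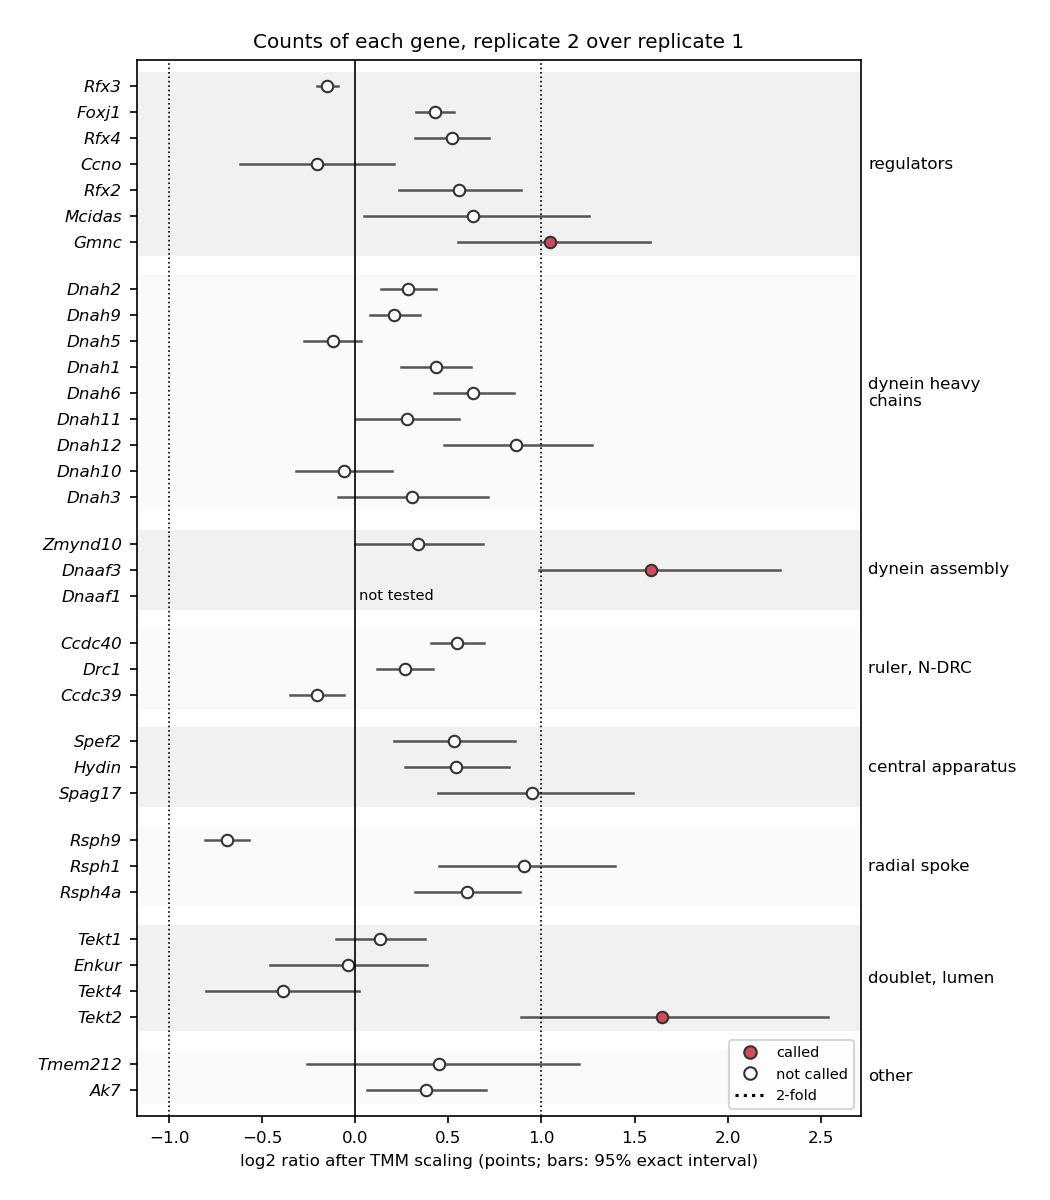
Log2 ratio of counts, replicate 2 over replicate 1 after TMM scaling, for the 33 members tested, with 95% exact intervals as bars, filled points for called genes and dotted lines at 2-fold. Only Gmnc, Tekt2 and Dnaaf3 are filled, and Rsph9 lies lowest at -0.69.

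Transcript tables show where gene levels and counts part. Of the 34 members, 16 have 1 transcript in the tables, and of the 18 with more, 12 had 1 transcript that led in both, by share of the gene's TPM. The 6 that differed were Rfx2, Rfx4, Dnah2, Dnah11, Dnah12 and Tekt2. In Dnah2 the 386-nucleotide noncoding transcript Dnah2-205 held 47.8% of the gene's TPM in replicate 1 on 13.3 estimated counts and 0 in replicate 2. The full-length coding transcript Dnah2-202, of 13704 nucleotides, held 11.9% and 40.2% on 322 and 813 counts. A few fragments on a short transcript thus can weigh as much in TPM as many more on a long one.

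Other members repeated the pattern. In Dnah9 the 532-nucleotide retained-intron transcript Dnah9-204 held 23.7% of TPM on 7 counts in replicate 1 and none in replicate 2, and the full-length Dnah9-201 held 47.9% and 83.0%. In Rfx3 the 343-nucleotide Rfx3-207 held 1.69% on 1 count and 32.8% on 25 counts, and Rfx3-202, which carried 4570 and 4896 counts, held 82.7% and 54.0%. The coding TPM of Rfx3 was thus higher in replicate 2 while its scaled counts were lower. In Tekt2 the 334-nucleotide Tekt2-204 held 53.1% on 2 counts in replicate 1. In Dnah11 the 716-nucleotide retained-intron Dnah11-202 held 51.7% in replicate 2 on 10.3 counts and 0 in replicate 1.

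Levels were therefore also summed without transcripts under 500 nucleotides or annotated as noncoding, a choice made after seeing the data. Dnah2 then stood at 1.77 and 2.50 coding TPM and Dnah9 at 2.81 and 3.59, and all 9 dynein chains were higher in replicate 2. Rfx3 came to 25.8 and 25.6, and Foxj1 kept its 24.0 and 36.1. Ccdc40 came to 6.65 and 16.0 in place of 16.6 and 29.8, and its noncoding transcript Ccdc40-204 had held 39.6% and 29.8% of its TPM. The Ccdc40 values still include a 523-nucleotide transcript with no annotated type, kept as coding. It made 0.66 and 6.54 of them, on 4 and 40 counts. The coding transcript Ccdc40-202 made 4.65 and 7.76. Zmynd10 came to 2.66 and 3.04, and its 411-nucleotide noncoding transcript had held 44.8% and 55.0%. Dnah11 came to 0.37 and 0.64, and Tekt2 to 0.15 and 1.23. With this choice 28 of 34 members were higher in replicate 2, against 27 of 34 with every transcript counted. Both counts are on the coding TPM scale, on which 67.1% and 66.6% of the protein-coding genes tested were higher in replicate 2.

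**Figure D3:**
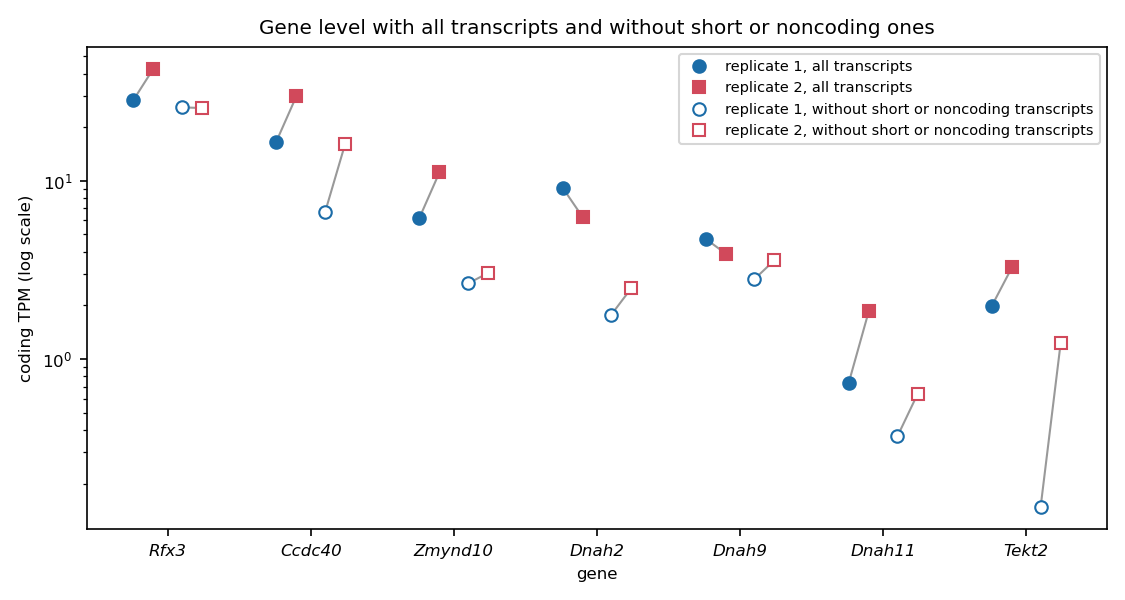
Coding TPM on a log axis of 7 genes in replicate 1 (circles) and replicate 2 (squares), with all transcripts (filled) and without transcripts under 500 nucleotides or annotated as noncoding (open). Dnah2 goes from 9.16 and 6.27 to 1.77 and 2.50, which turns the order of its libraries, and Rfx3 from 28.3 and 42.4 to 25.8 and 25.6.

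Some members share genomic bases with other genes. Exons of 14 members overlap exons of another gene, in all 14 on the opposite strand, and for 6 members a neighbour is protein-coding. The libraries are stranded, but whether counting used the strand is not given in the sources used here. Dnaaf1 shares 20.7% of its exon bases with Taf1c, a polymerase cofactor with 1241 and 1204 counts, and had only 5 and 1 itself. Ccdc39 shares 16.9% with Ttc14, which had 3747 and 5060 counts. Dnah3 shares 10.5% with Lyrm1 (312 and 297 counts), Spag17 9.66% with Wdr3 (1294 and 1680 counts) and Dnah11 4.44% with Cdca7l (104 and 164 counts). The part of these neighbours in the members' counts was not tested.

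The gene families of the members extend the picture. Among dynein heavy chains outside the set, Dnah7a was at 9.16 and 3.54 coding TPM, Dnah7b at 4.87 and 4.95 and Dnah7c at 0.59 and 0.68, values that are uncertain because these are near-identical copies. Dnah8 was at 0.37 and 0.68, Dnah17 at 0.15 and 0.09, and Dnah14 had 0 counts in both libraries. The cytoplasmic heavy chain Dync1h1, which carries cargo in all cells, was at 266 and 244, and Dync2h1, the motor of intraflagellar transport, at 12.6 and 16.4, above every axonemal chain. Among RFX factors, Rfx7 at 28.7 and 43.1 and Rfx1 at 15.5 and 22.9 stood beside Rfx3, Rfx5 was at 14.3 and 18.0, and Rfx6 and Rfx8 had 6 and 8, and 2 and 21, counts. Tekt5 was at 3.77 and 5.22 coding TPM, and Tekt3 had 2 and 6 counts. Of the other spoke genes, Rsph3b was at 27.5 and 33.6, Rsph3a at 13.7 and 12.9 (near-identical copies, and so uncertain) and Rsph10b at 1.85 and 3.27, while Rsph14 (0.30 and 0.23) and Rsph6a (0.22 and 0.18) were near 0. Of these relatives outside the set, Dnah7a was called lower in replicate 2 and Rfx8 higher.

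Other motile cilia genes, 80 of the 84 listed being found in the tables, had a median of 2.55 and 3.72 coding TPM. The highest were Tppp3 at 78.4 and 64.0, Rsph3b and Gas8 (a regulatory complex subunit) at 29.0 and 30.7, while Dnah14 and Pih1d3 had 0 counts in both libraries and Nme8 had 1 and 0. Of the 73 tested, 6 were called higher in replicate 2, among them Capsl and Spag16, and 4 lower (Meig1, Dnah7a, Spa17 and Dydc2), named here because they were called. Of all genes tested, 5.43% were called higher and 4.88% lower. The median log2 ratio of this list was 0.21 and 48 of 73 were above 0, against 49.8% of all genes tested. The list held calls in both directions and the members in 1, but only 3 members were called, too few to set the lists apart. The difference was not tested.

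Genes upstream of multiciliogenesis and their partners, 25 in number, were higher, with a median of 11.4 and 12.3 coding TPM. Cby1, a basal body protein, led with 101 and 68.0, and Noto, a factor of the embryonic node, had 0 counts. Of 24 tested, only Stil was called, higher in replicate 2. Trp73, which acts upstream of Foxj1, was at 2.14 and 3.77 coding TPM with a log2 ratio of 0.62 (adjusted p = 8.43e-07, exact binomial test), and Myb at 2.81 and 3.27. Cdc20b, at 1.70 and 1.00, and Deup1, a scaffold of centriole amplification, at 9.45 and 4.54, were lower in replicate 2 by coding TPM. The log2 ratio of scaled counts was -0.80 for Cdc20b (interval -1.50 to -0.12). For Deup1, with 234 and 267 counts, it was -0.09 (-0.35 to 0.17), so its counts showed no clear difference. Trp73, Myb, Cdc20b and Deup1 are named for their place in the pathway, outside the rule.

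The 42 primary cilium and intraflagellar transport genes are used by cells with a single immotile cilium, but not only by them. They stood at a median of 19.9 and 22.4 coding TPM, above the members, and all 42 reached 1 coding TPM in both libraries. Kifap3 was highest at 187 and 197. None was called in either direction by the exact binomial test. Among all genes tested 10.3% were called, and 2.77% with a minimum mean of 100 counts. At an adjusted p under 0.05 with no fold limit, 12 of the 42 were higher and 15 lower. The shares of all genes tested were 32.0% and 33.0%. The median log2 ratio of the 42 was -0.02. The 10 cytoplasmic dynein genes had a median of 183 and 178 coding TPM and a median log2 ratio of -0.25, with 0 calls, and 3 higher and 6 lower at that adjusted p. The differences between lists were not tested.

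**Figure D4:**
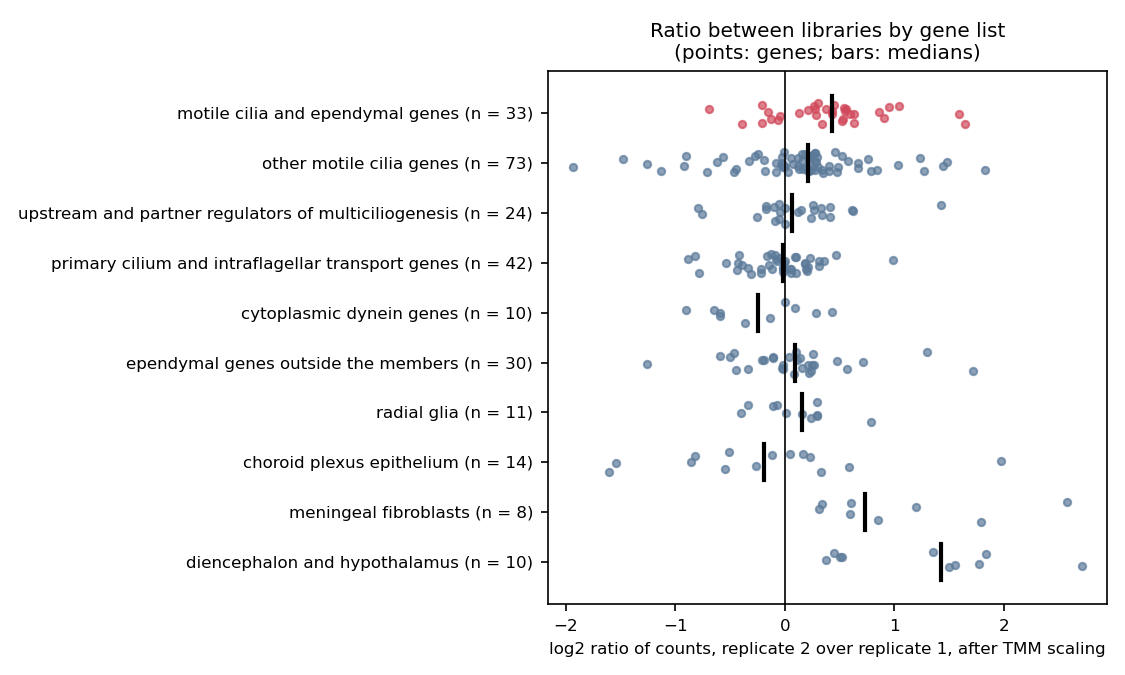
Log2 ratio of counts, replicate 2 over replicate 1 after TMM scaling, for each tested gene (points) with list medians (bars). The members have a median of 0.43, primary cilium genes -0.02, and diencephalon genes 1.43.

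The cell types that could supply these transcripts were read from their own markers. Ependymal genes outside the set, 30 in number, were all at 1 coding TPM or more in both libraries, with a median of 20.2 and 21.95. The highest, Cd24a (1398 and 1042), Vim (427 and 532) and Mt3 (143 and 419), are also expressed by other brain cells, so they do not single out ependyma. The lowest were Ccdc153 (2.73 and 2.22) and Cfap126 (1.62 and 2.32). Of these 30, Mt3 and Six3 were called higher in replicate 2 and Meig1 lower, and the median log2 ratio was 0.09. The lists are not independent. Tppp3, Meig1, Fam183b, Dynlrb2, Ccdc153 and Cfap126 are also among the other motile cilia genes, so the Meig1 call appears in both. All of these but Tppp3 lay below the median of the ependymal list in both libraries. Vim is also a radial glia marker, and Aqp4, Gja1 and S100b are also astrocyte markers. Radial glia markers, all 11 above 1 coding TPM in both, were led by Fabp7 at 1290 and 1131, with a median log2 ratio of 0.16 and 0 calls. Choroid plexus markers, all 14 present, were led by Ttr at 713 and 446, and their median log2 ratio was -0.19, with Kcnj13 and Kcne2 called lower and Lmx1a called higher. The summed level of the choroid plexus list was 817 and 563 coding TPM, mostly from Ttr, and that of the 13 genes other than Ttr was 105 and 117.

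The libraries also differed in marker genes of other regions and tissues. All 10 diencephalon and hypothalamus genes had log2 ratios above 0, with a median of 1.43, and 6 were called higher in replicate 2 (Nkx2-1, Sim1, Otp, Irx3, Rax and Hmx3). Their sum was 45.9 and 87.6 coding TPM. All 8 meningeal fibroblast genes had log2 ratios above 0, with a median of 0.73, and Col1a2, Col1a1 and Lum were called. Their sum was 322 and 827. All 7 genes of the neural stem cells and neuroblasts of the ventricular zone were above 0, with a median of 0.30 and 0 calls, and their sum was 628 and 812. Of the subcommissural and circumventricular list, Sspo, the secreted protein of the subcommissural organ, was called lower, with 172 and 28 counts, and Tbx3 and Rax were called higher. The part of these differences in the members' ratios was not tested.

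Markers of other organs that hold ciliated or flagellated cells were mostly low. The airway list covers multiciliated and secretory epithelium together, so its genes do not single out ciliated cells. In it Scgb1a1, Scgb3a2 and Muc5ac were at 0 in both libraries. The sum of its 12 genes was 9.53 and 21.4 coding TPM. Of this sum Nkx2-1, a gene that the diencephalon list also holds, made 2.81 and 9.94. Nkx2-1, Epcam and Foxa1 were called higher in replicate 2. Of the testis list, 7 of 8 genes, Prm1, Prm2, Tnp1, Tnp2, Akap4, Odf1 and Acrv1, were at 0, which leaves Crem, a gene with wide expression, at 23.2 and 16.1. Of the olfactory list, Adcy3, an adenylate cyclase of neuronal primary cilia, was highest at 24.9 and 28.5, and only Gng13 was called, lower, with 49 and 15 counts. Astrocyte markers, 10 of 10 present and led by Apoe at 1380 and 1060, had a median log2 ratio of -0.19 and 0 calls.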

How the data were processed

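Expected counts (estimated counts of fragments per gene and transcript), TPM, FPKM and each transcript's percent of the TPM of its gene were made by the authors for each library on mm10 with GENCODE M4, per the readme text deposited with them. Bounds of TPM (a signal column) and posterior mean counts and TPM were deposited beside these. Which aligner, quantifier and strand setting was used is not given in the sources used here. The libraries are paired-end and stranded, per the labels.

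Symbols and gene types came from GENCODE M21 by Ensembl identifier (42462 of 43346 genes, 98.0%). Coding TPM was computed from deposited TPM. Expected counts were rounded and scaled with edgeR 4.0.16 TMM factors (0.934 and 1.07), and genes with a mean of 10 counts or more were tested by a 2-sided exact binomial test (scipy 1.17.1) with Benjamini-Hochberg adjustment. DESeq2 1.42.0 size factors were one alternative. Log2 values used pseudocounts of 0.5 counts and 0.1 coding TPM. The test was tried on simulated counts with known changes. Those counts were drawn with counting error only, so the trial cannot show how the test behaves when libraries vary beyond it. Gene intervals are 95% exact, and the posterior SD of counts deposited for each member gene is 0. Transcripts with no GENCODE M21 entry were kept as coding.

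The members and lists were chosen with earlier results of these data known. The rule for names took all members, family genes, and the 3 highest and the lowest genes of each other list, of which some are given, and called genes were added after their values were seen. Spike-in values were not used, and some items are not reported here. With 2 libraries of 1 group, p-values measure only the spread between reads, and replicate error is given as the SD of 2 values.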

Additional observations from a re-analysis of the deposited data

How the results depend on the processing

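Of the 34 members, 24 reached 1 coding TPM in both libraries; the count was 10 at 5 coding TPM and 8 on deposited TPM, and 24 to 29 when either library was left out. The median level of the members was 0.498 on deposited TPM, and 2.18 to 3.18 when either library was left out. The number of members called between libraries was 3, and it was 6 with library totals (11.1% of all genes called), 0 with a minimum mean of 100 counts (2.77%) and 9 at 1.5-fold (19.6%). The median log2 ratio of the members was 0.62 with library totals, 0.64 as a ratio of coding TPM and 0.59 for that ratio without short and noncoding transcripts, where protein-coding genes as a whole moved to 0.15 on the coding TPM ratio, and 0.33 once its trend over transcript length was removed. The radial spoke difference was 1.09 with a pseudocount of 1, and 1.36 to 1.62 when either library was left out, and the regulator difference was 0.66 to 1.32. The other settings run moved these results by less than 1.5 times or less than 1 SD, and no value listed here or single gene called under any setting turned its direction. Dnah12, Spag17 and Rsph1 passed the call with library totals, and these 3, Dnah6, Rsph4a and Rsph9 at 1.5-fold. No paired analysis was possible because the libraries form 1 group.
The dominant transcript was the same in 12 of 18 members, and in 14 with transcripts of at least 500 nucleotides and in 10 of those with a mean of 100 counts.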
